A study of Mus musculus with 18 samples.

Results

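The comparison set mouse embryonic stem cells (ESCs) that carried an inducible active ezrin and had been exiting naive pluripotency for 48 h (iEZR_CA T48) beside wild-type (WT) cells at the earlier stage of 24 h (WT T24). It took 6 of the 18 libraries of the series, 3 in each group, chosen by line and sampling time from the sample labels. The series held WT and iEZR_CA cells at 3 time points, 0, 24 and 48 h, with 3 libraries in each of the 6 groups. It asked how cells with active ezrin, in which exit is delayed, stand against an earlier stage of normal exit. All cells were grown on gelatin and started in 2i+LIF, which keeps ESCs naive. Exit was begun by moving them to N2B27, which lacks those factors. WT cells were labelled E14 wt. iEZR_CA cells expressed a constitutively active ezrin under doxycycline, which was given from about 16 h before exit. No doxycycline is stated for WT cells, so the transgene, the drug, any difference between the cultured lines and the hours in N2B27 cannot be told apart in this comparison. The same lines in 2i+LIF, 3 libraries each, gave the difference between the lines before exit. That comparison shared no library with the main one.

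Naive ESCs resemble the epiblast before implantation and are held by factors such as Nanog, Esrrb, Klf4 and Tfcp2l1. On exit these factors are lost, and genes of the formative state, such as Otx2, Fgf5 and the de novo DNA methyltransferases, come on, driven in part by FGF and ERK signalling. Ezrin, with radixin and moesin, ties the plasma membrane to the actin cortex and so raises membrane tension.

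The gene read totals of the 12 libraries used for the lines at these stages ran from 13587076 to 33276622. Ezr (chromosome 17, 6738041 to 6782784, minus strand, GRCm38) was the check of the labels. Its normalized counts were 7539, 7703 and 7890 in WT T24 and 16070, 16190 and 16390 in iEZR_CA T48. In ESCs they were 11470 to 12020 in WT and 24370 to 25360 in iEZR_CA. Ezr was thus 2.10-fold higher at T48 and 2.11-fold higher in ESCs, with no overlap (exact permutation p = 0.1 in both, 2-sided, the smallest p that 3 against 3 libraries allow). The share of all counted reads set aside for low alignment quality was 0.519 to 0.612% in WT and 0.889 to 1.02% in iEZR_CA libraries, and its part in the results was not tested. Reads of the transgene and of the endogenous gene were not separated in these counts.

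Among protein-coding genes whose normalized counts averaged at least 50, Hprt was the lowest and Mid1 the highest in iEZR_CA T48 against WT T24, and both differed alike between the ESCs. Hprt, the purine salvage enzyme on the X chromosome (52988137 to 53021659), had normalized counts of 2790, 2932 and 3105 in WT T24 and 10.77, 11.71 and 11.99 in iEZR_CA T48. In ESCs its counts were 2390 to 2559 in WT and 5.86 to 9.97 in iEZR_CA. The methods call the WT line E14TG2a, which is known as an Hprt-deficient derivative of E14, whereas the labels say E14 wt. Groups are named here as in the labels. Mid1, a microtubule-associated ubiquitin ligase that spans the pseudoautosomal boundary of the X chromosome in mice, had 6.31, 8.08 and 9.02 in WT T24 and 1045, 1076 and 1106 in iEZR_CA T48.

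One stretch of chromosome 14, from 50000001 to 80000000, was low in all iEZR_CA libraries. It was found after the values were seen and is given as a description. Of its 293 genes tested, 224 were lower and 13 higher in iEZR_CA T48 than in WT T24. The median log2 fold change of its 207 genes averaging at least 50 normalized counts was -0.96, against 0.04 for the rest of chromosome 14, and it was -0.93 between the ESCs. By library, the medians of iEZR_CA ESCs against the WT ESC mean were -0.95, -0.93 and -0.96. The stretch held 120 of the 1071 genes that were more than 2-fold lower at T48 (11.2%). Chromosome 8 as a whole had a median of 0.19 in both comparisons. Members named below that lie in the stretch are marked as such, and the part of this difference in their values was not tested.

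Levels at 48 h of active ezrin were closest to WT T24 among the WT stages, though 10917 of 18469 genes still differed by adjusted p. These were split into 5492 higher genes (29.7% of those tested) and 5425 lower genes (29.4%) by edgeR's quasi-likelihood test with Benjamini-Hochberg adjustment under 0.05. Those shares are the background for the list counts by adjusted p given below. By more than 2-fold, 1266 genes were higher (6.85%) and 1071 lower (5.80%), which makes 2337 in all (12.7%). With libraries scaled to the spike-in sequences instead, 1588 were higher and 782 lower, so that 67.0% and not 54.2% of these calls were higher. The balance turned with at least 10 counts in every library, at 384 higher and 479 lower, and in a test against a minimum fold of 1.5, at 1286 and 1344. By adjusted p, spike-in scaling gave 5291 higher genes (28.6% of those tested) and 2216 lower (12%). That scaling moved the median log2 fold change of all genes up by 0.168, and the counts by adjusted p it gave for the lists are set beside the main ones. The spike-in share of all counted reads was 0.734 to 0.766% in WT T24 but 0.874, 0.575 and 0.643% in iEZR_CA T48. The part of this spread between replicates in the calls lost under spike-in scaling was not tested. Against WT T48 iEZR_CA T48 differed by more than 2-fold in 2970 genes (16.1%), and against WT ESCs in 4951 (26.8%). The same order, from WT T24 to WT T48 to WT ESC, held in every alternative setting that gave all 3 counts. Over 12801 genes whose normalized counts averaged at least 50, the root mean square log2 distance from iEZR_CA T48 libraries was 0.618 ± 0.0013 to the WT T24 mean. It was 0.727 ± 0.011 to WT T48 and 1.15 ± 0.0062 to WT ESC (SD over the 3 iEZR_CA T48 libraries).

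Naive pluripotency genes were lower in iEZR_CA T48 than in WT T24 but higher than in WT T48. Of 20 members, all tested, 16 were lower, 3 higher and 1 did not pass the test, and 11 were lower by more than 2-fold. The median log2 fold change was -1.13, against 0.01 over all genes tested. With spike-in scaling 16 members were lower and 2 higher. For 15 of the 20 the level lay between WT T24 and WT T48 with both differences past the test, as it did for 3061 of all genes (16.6%).

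Nanog, a core naive transcription factor, had 2392, 2393 and 2393 normalized counts in WT T24 and 1069, 1119 and 1131 in iEZR_CA T48. The WT T48 mean was 411 and the iEZR_CA T24 mean 8254. The libraries of the groups compared did not overlap, and iEZR_CA T48 stood below WT T24 yet well above WT T48. Esrrb, an orphan nuclear receptor, had 5908, 5914 and 5937 in WT T24 and 2511, 2584 and 2693 in iEZR_CA T48. Its WT T48 mean was 379. Zfp42 (Rex1), the usual reporter gene of the naive state, had 11980, 12520 and 12770 against 4715, 5040 and 5383, and its WT T48 mean was 820. In each of these genes the T48 level with active ezrin was below WT T24 and above WT cells at the same hour. The log2 fold changes against WT T24 were -1.11 ± 0.034 for Nanog, -1.19 ± 0.029 for Esrrb and -1.30 ± 0.032 for Zfp42. Here and below, ± after a log2 fold change is an approximate SE, its absolute size divided by the square root of edgeR's F statistic.

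The largest falls on the naive list were in Jam2, Nr0b1 and Nr5a2. Jam2, a junctional adhesion molecule of naive cells, had 955, 976 and 1006 in WT T24 and 73.6, 82.3 and 89.9 in iEZR_CA T48, a log2 fold change of -3.59 ± 0.065. Nr0b1 (Dax1), an X-linked nuclear receptor, had 7642, 7782 and 7872 against 980, 1036 and 1076. The lines already differed in Nr0b1 as ESCs by -1.18 on the log2 scale, whereas Jam2 differed there by -0.22. Nr5a2, an orphan receptor, was lower by 2.09 on the log2 scale and differed by only -0.02 between the ESCs. Klf4, the Krüppel-like factor downstream of LIF, and Tfcp2l1 were lower by smaller amounts, with log2 fold changes of -0.68 ± 0.060 and -0.92 ± 0.065. Gbx2, a homeobox target of LIF, was the member below both WT stages, at 282 to 332 against 933 to 1022 in WT T24 and a mean of 2075 in WT T48. Among the members not lower, Dppa3 had a log2 fold change of 0.19 that did not pass the test. Fbxo15 and Pecam1 were higher by only 0.12 and 0.09, and Pecam1 lost its call in several alternative settings, as Fbxo15 did without iEZR_CA T48 replicate 2 (0.08). Spic had at most 9.23 normalized counts in these 6 libraries, and its call (edgeR adjusted p = 0.0499) was lost in several alternatives.

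**Figure D1:**
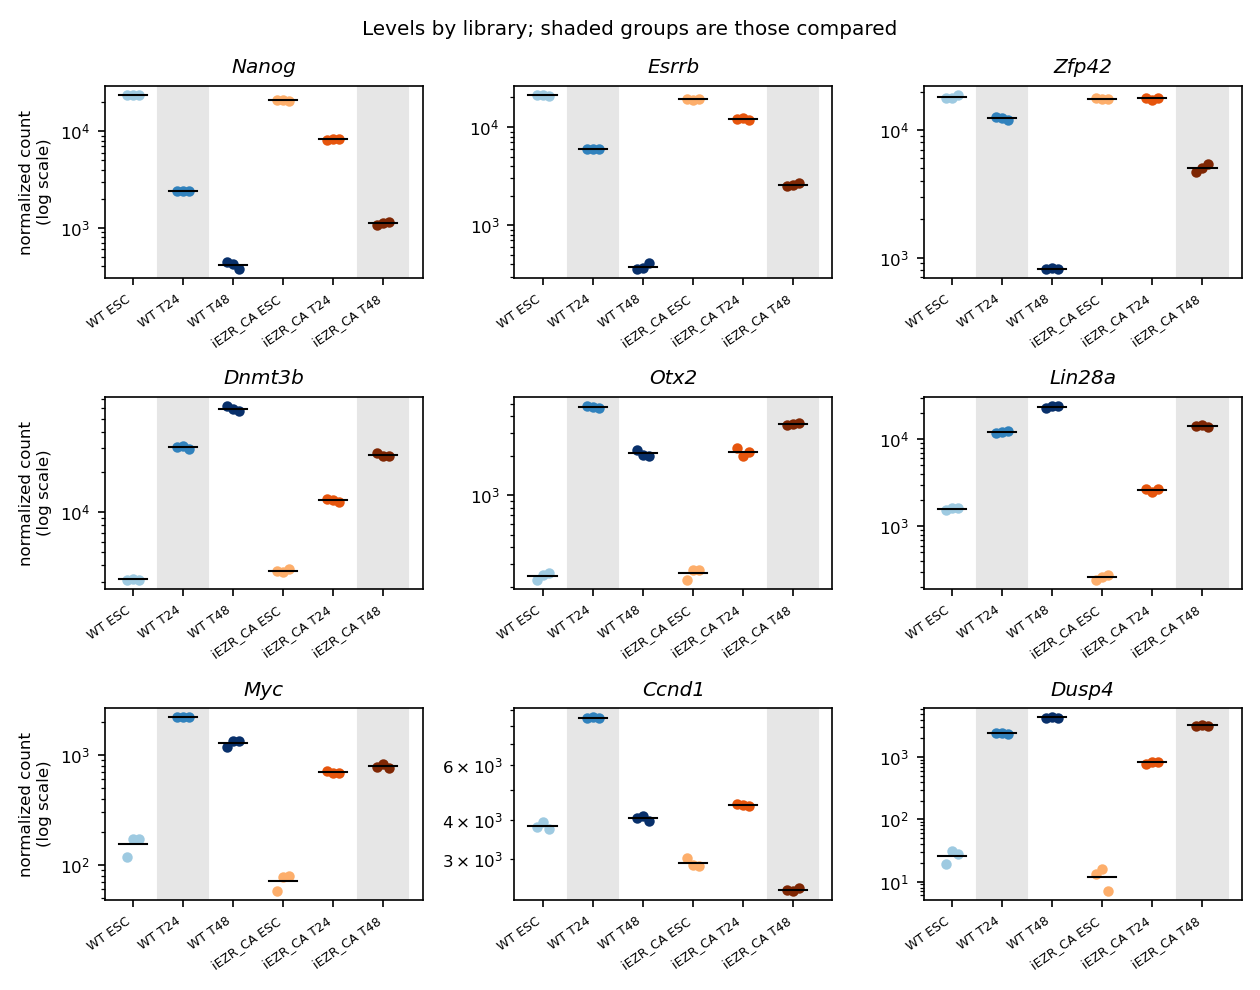
Normalized counts (log scale) of 9 genes in each of the 18 libraries, with points for libraries and bars for the group mean of 3. The naive genes Nanog, Esrrb and Zfp42 in iEZR_CA T48 lie between WT T24 and WT T48, whereas Myc and Ccnd1 in iEZR_CA T48 lie below both WT exit stages.

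The core pluripotency list, of Pou5f1, Sox2, Sall4 and Lin28a, had 3 of 4 members lower, and 2 lower and 1 higher with spike-in scaling. Pou5f1 (Oct4) had 18150, 18580 and 18900 in WT T24 and 10770, 10900 and 10940 in iEZR_CA T48, which was also under its WT T48 mean of 13130. Sox2 had 8419 to 9112 against 4111 to 4439, a log2 fold change of -1.05 ± 0.031. Sall4 was lower by 0.26 on the log2 scale, a difference that did not pass the test with spike-in scaling. Lin28a, an RNA-binding repressor of let-7 that comes on with exit, was the one member higher, at 13940, 14220 and 14360 against 11760, 12210 and 12510. In ESCs its mean was 1591 in WT and 259 in iEZR_CA. The log2 fold change was -2.64 between the ESCs and 0.23 for iEZR_CA T48 against WT T24. At matched hours its means were lower in iEZR_CA, with 2607 against 12160 at T24 and 14180 against 23660 at T48.

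Formative and early post-implantation genes did not move as one. Of 15 members 10 were lower, 3 higher and 2 not past the test, with a median log2 fold change of -0.39, and with spike-in scaling 6 were lower and 4 higher. Among the de novo DNA methyltransferases Dnmt3a had 21060 to 21660 in WT T24 and 13100 to 13380 in iEZR_CA T48. Dnmt3b was close, at 29670 to 31310 against 26120 to 27700, and this small difference was not called with spike-in scaling. The WT T48 mean of Dnmt3b was 59630, well above both groups. Otx2, a homeodomain factor of the formative epiblast, had 4644, 4712 and 4822 against 3434, 3513 and 3530, between the WT T24 mean of 4726 and the WT T48 mean of 2083, though the difference from WT T24 was not called with spike-in scaling. Grhl2, which opens epithelial enhancers in the formative state, was lower than at both WT stages, at 1511 to 1629 against 3424 to 3527. Sall2, in the chromosome 14 stretch, was lower by 1.39 on the log2 scale and by 1.91 between the ESCs. Fgf15, a secreted FGF, was lower by 2.23 on the log2 scale.

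The 3 higher members were Fgf5, Sox3 and Lin28b. Fgf5, the classic marker of the primed epiblast, had 1043, 1047 and 1059 in WT T24 and 1296, 1352 and 1359 in iEZR_CA T48, a log2 fold change of 0.35 ± 0.058. Lin28b, a relative of Lin28a, had 320 to 331 against 600 to 611, and its WT T48 mean was 2152. Both groups of libraries were apart in each of these genes. Pou3f1 (Oct6), another formative factor, had means of 5334 and 6054 and did not pass the test, though it did with spike-in scaling (0.35 on the log2 scale) and without WT T24 replicate 1 (0.26).

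Targets and feedback inhibitors of ERK signalling were lower in iEZR_CA T48 than in WT T24. Of 15 members 13 were lower, 4 of them by more than 2-fold, 1 was higher and 1 did not pass the test. The median log2 fold change was -0.71, and 9 were lower and 1 higher with spike-in scaling. Between the ESCs, where the MEK inhibitor of 2i is present, 9 were lower and 4 higher. The level of 8 members was below both WT T24 and WT T48, as it was for 11.9% of all genes tested. For 5 members it lay between WT T24 and WT T48, as it did for 16.6% of all genes tested.

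Epha2, an ephrin receptor and ERK target, had 6525, 6593 and 6713 in WT T24 and 1596, 1663 and 1666 in iEZR_CA T48, a log2 fold change of -2.003 ± 0.031. Ccnd1 (cyclin D1) had 8474, 8506 and 8584 against 2362, 2378 and 2413, which was below even the WT ESC mean of 3826. Myc had 2189, 2203 and 2221 against 758, 774 and 831. WT T48 means were 548 for Epha2, 4050 for Ccnd1 and 1288 for Myc, each under its WT T24 level. Epha2 in iEZR_CA T48 was above that mean, whereas Ccnd1 and Myc were below theirs. Myc differed by -1.14 on the log2 scale between the ESCs too, and for it the departure of the T48 difference from the ESC difference did not pass the test (edgeR adjusted p = 0.072). The feedback inhibitors Spry2 and Spry4 were lower by 1.14 and 0.95 on the log2 scale, and Dusp6, the ERK phosphatase, by 0.71. Dusp4, a nuclear MAPK phosphatase, was the exception at 3205, 3206 and 3288 against 2363, 2401 and 2435. Its WT T48 mean of 4336 was higher still.

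The FGF ligands and receptors split. Of 11 members 5 were higher, 3 lower and 3 not past the test, with 5 higher and 2 lower under spike-in scaling. Fgf4, the ligand ESCs make themselves, had 9358 to 9639 in WT T24 and 4492 to 4702 in iEZR_CA T48. The receptor Fgfr2 had 261.5, 267.5 and 307 against 1221, 1289 and 1296, a log2 fold change of 2.22 ± 0.075, and stood above the WT T48 mean of 921 as well. Fgfr1, the main receptor in ESCs, was higher by 0.32 on the log2 scale. In WNT targets 2 of 11 tested members were higher and 4 lower, against 3 and 2 with spike-in scaling. Their median log2 fold change was 0.91, and 5 members did not pass the test. Notum, a secreted WNT deacylase, had 855 to 899 against 132 to 172. Among LIF and STAT3 pathway genes 6 of 10 were lower and 2 higher, against 4 and 3 with spike-in scaling.

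Genes that rose during normal exit were more often higher than lower in iEZR_CA T48 against WT T24, and genes that fell more often lower than higher. This used WT T48 against WT ESC to class the genes, which shared no library with the comparison. Of the 2918 genes that rose by more than 2-fold from WT ESC to WT T48 (15.8% of those tested), 669 were more than 2-fold higher in iEZR_CA T48 than in WT T24 (22.9%) and 162 lower (5.55%). Of the 2872 that fell (15.6% of those tested), 488 were lower (17.0%) and 139 higher (4.84%). The medians of the log2 fold change were 0.39 and -0.31. Among the 12679 genes in neither class, 458 were higher (3.61%) and 421 lower (3.32%). By adjusted p alone 462 genes that rose over WT exit were lower in iEZR_CA T48 than in WT T24 (15.8%, against 29.4% of all genes tested) and 418 genes that fell were higher (14.6%, against 29.7%). With spike-in scaling 325 of the falling genes were lower.

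**Figure D2:**
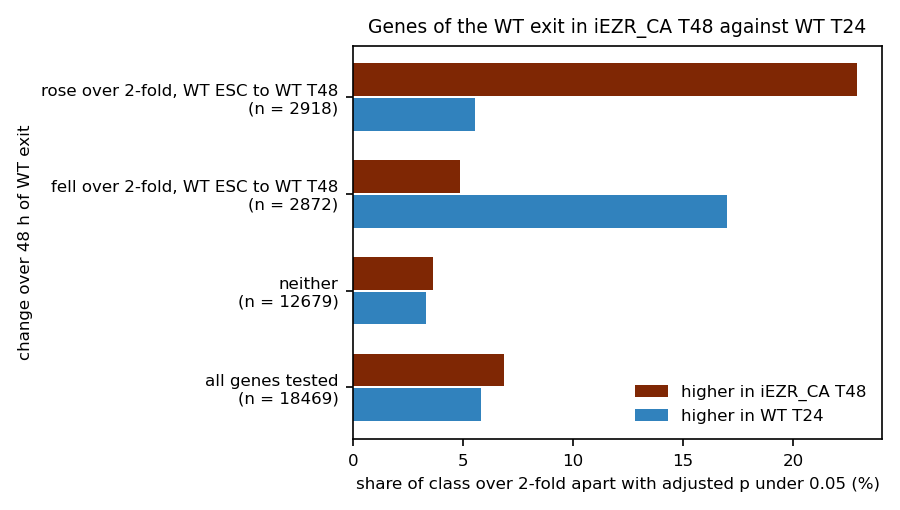
Share of genes (%) that were more than 2-fold higher or lower in iEZR_CA T48 than in WT T24, for genes that rose, fell or did neither between WT ESC and WT T48 and for all genes tested. Of the genes that rose 22.9% were higher and 5.55% lower, and of those that fell 4.84% were higher and 17.0% lower.

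The lines differed before exit by about as many genes as in the main comparison. Between iEZR_CA and WT ESCs 4877 genes were higher (26.4%) and 5181 lower (28.1%), and 2198 differed by more than 2-fold (11.9%), 1033 higher and 1165 lower. Of the 2337 genes past 2-fold at T48 against WT T24, 810 were past it in the same direction between the ESCs (34.7% of the first list and 36.9% of the second) and 88 in the opposite direction. A further 910 did not pass the test in ESCs at all (38.9%). Across 12801 genes the log2 fold changes of both comparisons had a Pearson r of 0.565 and a Spearman rho of 0.529. This is across genes of the same lines, which are not independent replicates.

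**Figure D3:**
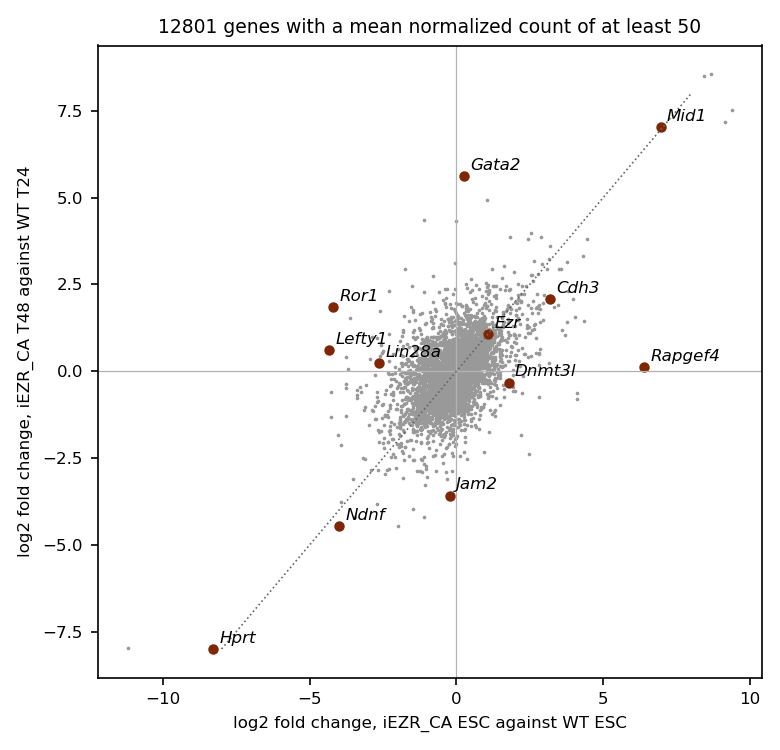
Log2 fold change of iEZR_CA T48 against WT T24 (vertical) and of iEZR_CA ESC against WT ESC (horizontal), 1 point per gene averaging at least 50 normalized counts, with the line of equality dotted. Hprt, Mid1, Ndnf and Ezr lie near that line. Lefty1, Ror1 and Lin28a are low in iEZR_CA ESC against WT ESC and not low in iEZR_CA T48 against WT T24.

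Tested directly, the difference at T48 against T24 departed from that between the ESCs in 3620 genes upward (19.6%) and 3661 downward (19.8%), and by more than 2-fold in 1853, of which 1064 were upward (5.76%) and 789 downward (4.27%). For Ezr the departure was 0.00 on the log2 scale. In the naive list 18 of 20 members departed downward and none upward, with a median of -1.05, since the lines were close in ESCs (median -0.07). In the ERK list 8 of 15 departed downward and 2 upward. Lefty1, an antagonist of Nodal, turned in the other direction. Its means in ESCs were 255 in WT and 12.2 in iEZR_CA, whereas at the later stages it had 703, 705 and 746 in WT T24 and 1080, 1087 and 1104 in iEZR_CA T48. Its departure was 4.94 ± 0.27 on the log2 scale. Rapgef4 (Epac2), an exchange factor of Rap, turned the opposite way. Its means were 3.16 in WT ESCs and 285 in iEZR_CA ESCs, but 88.1 in WT T24 and 94.1 in iEZR_CA T48, where the groups overlapped. Ror1, a receptor of Wnt5a, had at most 2 reads per library in iEZR_CA ESCs and was at least 8.37-fold higher in WT ESCs (against 3 reads per library). At the later stages it had 178 to 188 in WT T24 and 622 to 693 in iEZR_CA T48. The WT T48 mean of Ror1 was higher still, at 1398.

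A smaller set lay outside the levels of both WT T24 and WT T48, a rule that left out WT ESCs. More than 2-fold above both WT T24 and WT T48 were 343 genes (1.86%), and more than 2-fold below both were 283 (1.53%). Among protein-coding genes chosen by the same mean and overlap limits, besides Hprt the lowest against both were Fank1, Zfp658, Ndnf, Ccnd2 and Nfatc4, the last in the chromosome 14 stretch. Besides Mid1, the highest were Fam169b, Sstr5, Tlr2, Rcsd1 and Nlrp4a. By the fit all 12 differed in the same direction by more than 2-fold between the ESCs, though for Ndnf this rested on at most 4 reads per library in WT ESCs and 0 in iEZR_CA ESCs. Ccnd2 (cyclin D2) had 609, 668 and 683 in WT T24 and 25.1, 37.2 and 43.1 in iEZR_CA T48, with a mean of 314 in WT T48. Fam169b had 44.4 to 49.5 against 630 to 672. Tlr2, a receptor of bacterial lipopeptides, had 13.1 to 20.5 against 248 to 269. None of these groups overlapped. Means in WT ESCs were 22.1 for Ccnd2 and 1.59 for Ndnf, under their iEZR_CA T48 means of 35.1 and 15.6.

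The genes with the largest differences from WT T24 were taken among protein-coding genes past the test, averaging at least 50 normalized counts over the 6 libraries and no overlap between the groups. The 12 lowest in iEZR_CA T48 were Hprt, 9330159F19Rik, Ndnf, Vax2, Ccnd2, Fank1, Zfp658, Jam2, Phf11d, Atp8b5, Nfatc4 and Inhbb, of which Phf11d and Nfatc4 lie in the chromosome 14 stretch. Their log2 fold changes ran from -7.996 to -3.09. Inhbb, a subunit of activin B, had a mean of 305 in WT T24, 35.3 in iEZR_CA T48 and 5.44 in WT T48 and so lay between WT T24 and WT T48. The 12 highest were Mid1, Gata2, Ramp2, Dcn, Il33, Tlr2, Pdzk1, Fam169b, Slamf9, Gcm1, Cdh10 and Zfy1. Gata2, a transcription factor of trophoblast and blood, had at most 2 reads per library in WT T24 and 86.2, 96.9 and 113.9 normalized counts in iEZR_CA T48, at least 30.7-fold higher (against 3 reads per library). Its means were also 89.05 in WT ESCs and 105 in iEZR_CA ESCs, and 21.8 in WT T48. Dcn (decorin), a matrix proteoglycan, had 11.03, 16.15 and 19.32 against 303, 328 and 363, and its WT T48 mean was 227. Ramp2 and Cdh10, unlike Dcn, had more in WT T48 than in iEZR_CA T48, with means of 391 against 155 and 217 against 99.3. Zfy1, a Y-linked zinc finger gene, was higher by 3.10 on the log2 scale and by 2.91 between the ESCs.

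**Figure D4:**
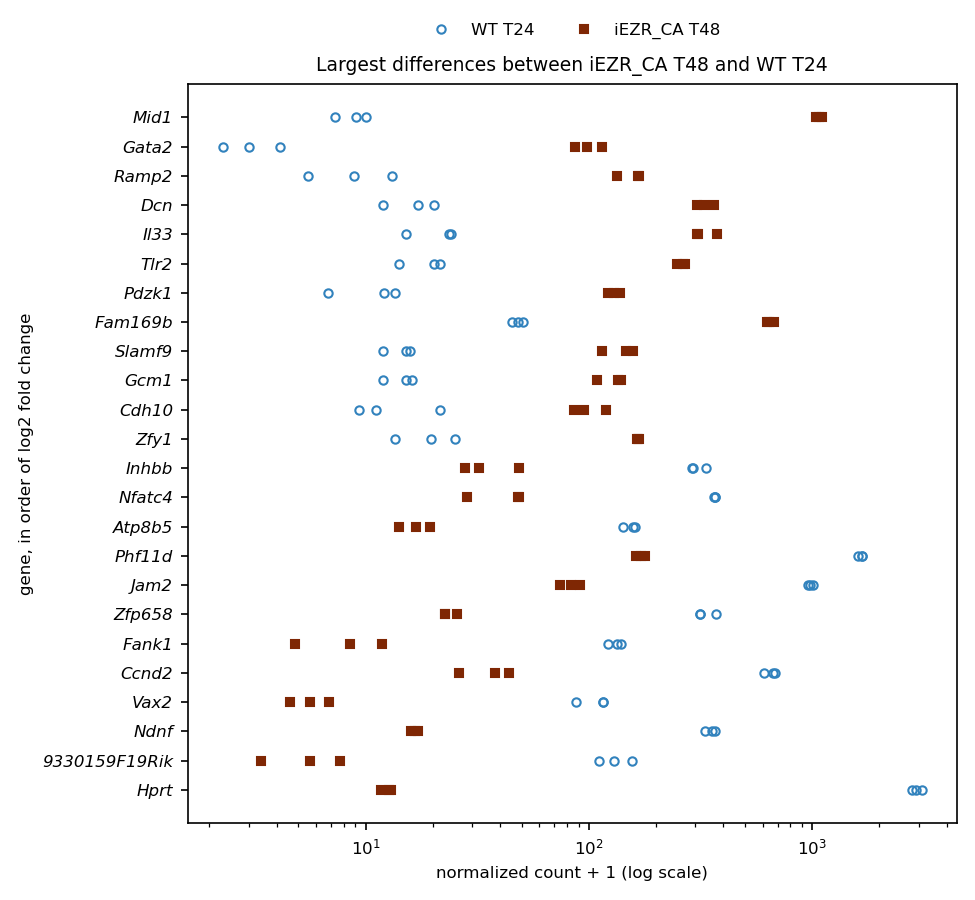
Normalized count + 1 (log scale) of the 12 genes with the largest rise and the 12 with the largest fall, 3 WT T24 libraries (open circles) and 3 iEZR_CA T48 libraries (squares) each. The groups are apart in all 24 genes, by choice of the rule.

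Among membrane-to-cortex linkers Ezr was not the only one changed. Of 14 ERM and myosin I linker genes 5 were higher and 9 lower, and with spike-in scaling 4 were higher and 5 lower. Msn (moesin) had 4357, 4380 and 4472 in WT T24 and 6021, 6126 and 6172 in iEZR_CA T48, and it differed by 0.99 on the log2 scale between the ESCs. Rdx (radixin) was close, with a log2 fold change of 0.09 that was not called with spike-in scaling. Myo1f, a class I myosin, had 1414 to 1483 against 202 to 266. Myo1c, the class I myosin tied to membrane tension, was lower by 0.71 on the log2 scale.

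Adhesion genes were called in both directions, where 29.7% of all genes tested were higher and 29.4% lower. Of 14 cell-matrix adhesion genes 7 were higher and 6 lower, none by more than 2-fold, against 6 and 1 with spike-in scaling. The integrin subunits Itga3 and Itgb1 were higher by 0.95 and 0.68 on the log2 scale, and Itgb1 had 4407 to 4597 against 7115 to 7238. Of 12 cadherins and epithelial-mesenchymal genes 6 were higher, 5 of them by more than 2-fold, and 4 lower, against 6 and 2 with spike-in scaling. Cdh3 (P-cadherin) had 1181, 1205 and 1239 against 4969, 5032 and 5241, and was the most different member between the ESCs too (3.18 on the log2 scale). Cdh1 (E-cadherin) was higher by 0.17. Zeb2, a transcriptional repressor of epithelial genes, had 27.7 to 34.7 against 138 to 148, and its WT T48 mean was 350. Of 13 YAP and SRF target genes tested 5 were higher and 6 lower, and with spike-in scaling, where the balance turned, 5 were higher and 3 lower. Of 13 endocytosis genes tested 3 were higher and 8 lower, all by less than 2-fold, and with spike-in scaling 2 were higher and none lower.

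Cholesterol synthesis genes, which turn acetyl-CoA into the sterol of the plasma membrane, were higher together. Of 15 members 12 were higher, 2 lower and 1 not past the test, with a median log2 fold change of 0.48, and 12 were higher with spike-in scaling. All 12 stood above WT T48 as well, as 13.6% of all genes tested stood above both WT T24 and WT T48. Between the ESCs 12 were higher and 1 lower, with a median of 0.37. The difference at T48 departed from that between the ESCs upward in 7 members and downward in 4. Sc5d, the sterol C5 desaturase, had 580, 594 and 607 in WT T24 and 1460, 1484 and 1498 in iEZR_CA T48, a log2 fold change of 1.33 ± 0.047. Msmo1, the methylsterol oxidase, had 3373 to 3419 against 6374 to 6768. Lss, which closes the sterol rings, had 3403 to 3447 against 6036 to 6219. The members that were lower were Fdft1 (squalene synthase), which lies in the chromosome 14 stretch and fell by 1.13 on the log2 scale, and Hmgcs1, which was lower by 0.19 and not called with spike-in scaling.

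Promoters could be printed only for members of this list with a promoter entry, so the 3 shown are not a ranking of all 15. The promoters of Sc5d, Msmo1 and Lss are printed because 12 members were higher together and those with an entry share a motif. They are RefSeq windows of 300 bases, 250 before to 50 after the start, on GRCm38.p6, 5′ to 3′ on the gene's strand, with the CCAAT box (CCAAT or its reverse complement ATTGG) in capitals. Sc5d is chr9:42264251-42264550 (minus strand), Msmo1 is chr8:64733529-64733828 (minus) and Lss is chr10:76531355-76531654 (plus).
Sc5d: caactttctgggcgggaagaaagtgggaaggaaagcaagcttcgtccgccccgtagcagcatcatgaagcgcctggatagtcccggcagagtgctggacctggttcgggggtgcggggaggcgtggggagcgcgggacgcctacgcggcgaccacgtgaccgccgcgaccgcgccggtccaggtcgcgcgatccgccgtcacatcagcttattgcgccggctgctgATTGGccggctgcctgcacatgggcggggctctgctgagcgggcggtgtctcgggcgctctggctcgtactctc
Msmo1: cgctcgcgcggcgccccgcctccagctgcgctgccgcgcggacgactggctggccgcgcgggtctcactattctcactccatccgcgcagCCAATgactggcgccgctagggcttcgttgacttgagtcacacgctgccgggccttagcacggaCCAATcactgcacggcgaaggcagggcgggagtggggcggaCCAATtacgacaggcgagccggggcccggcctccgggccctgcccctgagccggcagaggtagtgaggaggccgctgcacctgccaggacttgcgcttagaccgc
Lss: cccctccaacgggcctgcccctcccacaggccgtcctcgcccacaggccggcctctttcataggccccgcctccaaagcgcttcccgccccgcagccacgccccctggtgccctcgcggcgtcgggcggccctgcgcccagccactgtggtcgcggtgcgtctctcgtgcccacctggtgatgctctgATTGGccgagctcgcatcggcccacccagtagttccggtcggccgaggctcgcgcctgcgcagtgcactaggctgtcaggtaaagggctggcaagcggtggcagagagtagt
Of the 15 members, 9 matched an entry, and all 9 had a CCAAT box in at least 1 window (Cyp51, Dhcr7, Hmgcs1, Idi1, Insig1, Lss, Msmo1, Nsdhl and Sc5d). Of all 27025 genes with an entry 41.1% had one, and of all 32851 windows 37.4%. The sterol regulatory element TCACNCCAC, searched on both strands, was in 1 of the 9 genes (Hmgcs1), in 1.44% of all genes with an entry and in 1.24% of all windows. Hmgcs1, which had the CCAAT box too, was lower in iEZR_CA T48 than in WT T24. The E-box CACGTG was searched too. It was in 3 of the 9 genes (Dhcr7, Insig1 and Sc5d) and in 8.09% of all genes with an entry. These letter matches are a description of the windows and not of binding.

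**Figure D5:**
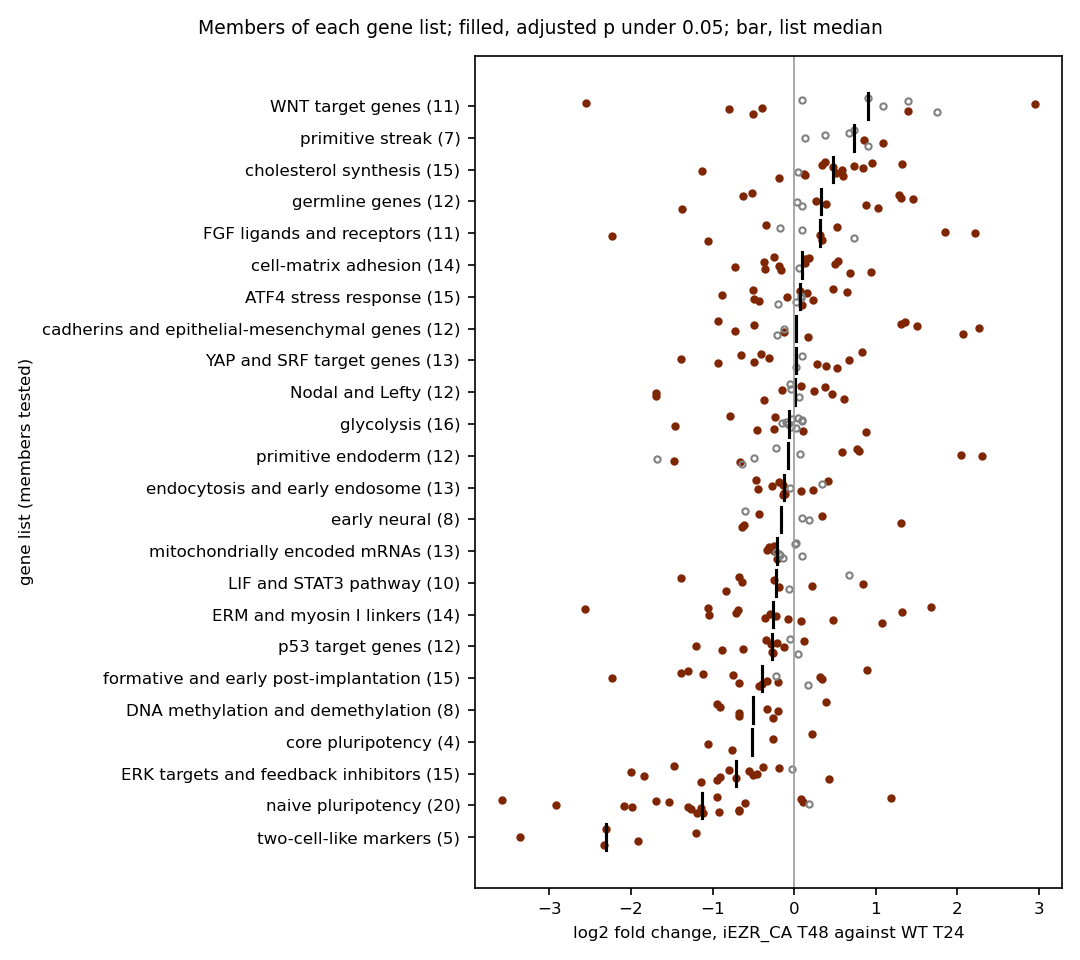
Log2 fold change of iEZR_CA T48 against WT T24 for each tested member of 24 gene lists, filled where the adjusted p was under 0.05, with the list median as a bar. Naive pluripotency (median -1.13) and ERK targets (-0.71) lie to the left of 0 and cholesterol synthesis (0.48) to the right, whereas glycolysis and ATF4 genes centre near 0.

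Markers of other cell types were summed in each library. The summed normalized counts of 12 primitive endoderm markers were 2031 to 2130 in WT T24 and 3116 to 3216 in iEZR_CA T48, and none was at 0. Most of that sum was laminin and collagen: Lamb1 and Col4a1 were higher by 0.58 and 0.80 on the log2 scale. By the test 5 members were higher and 2 lower, against 5 and 1 with spike-in scaling. The transcription factor Foxa2 was higher by 2.05 on the log2 scale, with means of 6.22 and 23.6. Gata6 and Sox17, defining transcription factors, were lower, with means of 26.7 and 7.28 in iEZR_CA T48, and Gata4 (in the chromosome 14 stretch) had means of 19.9 and 12.4, short of the test. Gata6 was not called with spike-in scaling or without WT T24 replicate 1 (-0.37), and Gata4 was called without WT T24 replicate 2 (-0.73) or iEZR_CA T48 replicate 2 (-0.89). Dab2, an endocytic adaptor, was higher by 2.31 and in ESCs by 3.81. The sums were 2536 to 2719 and 2574 to 2640 for 10 early neural markers and 150 to 167 and 273 to 300 for 10 primitive streak markers, of which 3 had at most 3 reads in every one of the 6 libraries. Of 8 early neural markers tested 2 were higher and 3 lower, against 2 and 2 with spike-in scaling. Over all genes tested 29.7% were higher and 29.4% lower. Of 7 primitive streak markers tested 2 were higher and none lower under either scaling, and Eomes, a T-box factor, with means of 131 and 237, made up most of that sum. Core pluripotency genes summed to 46500 to 47240 in WT T24 and 35420 to 35580 in iEZR_CA T48. Lin28a, the member that was higher, had means of 12160 and 14180 within these sums. In bulk RNA fewer cells of a type and less RNA per cell cannot be told apart.

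All 5 tested two-cell-like markers, genes of a rare ESC state like the 2-cell embryo, were lower by more than 2-fold, and all 5 were lower with spike-in scaling. Their sum over 8 markers was 131 to 158 in WT T24 and 31.5 to 36.0 in iEZR_CA T48. The Zscan4 genes among them are near-identical copies, so their single counts are uncertain. Of 8 genes of DNA methylation and demethylation 7 were lower and 1 higher, with 4 lower under spike-in scaling. Tet2, a dioxygenase of 5-methylcytosine, had means of 2722 and 1412, and Tet1 of 16590 and 8801. Of 12 germline genes, many of which are silenced by DNA methylation, 7 were higher and 3 lower, and the same counts were found with spike-in scaling. Of 12 Nodal and Lefty pathway genes 5 were higher and 4 lower, against 4 and 2 with spike-in scaling.

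Metabolic and stress lists held few changes past 2-fold. Their counts by adjusted p stand beside 29.7% higher and 29.4% lower over all genes tested. Of 16 glycolysis genes 2 were higher, 5 lower and 9 not past the test (median log2 fold change -0.06), against 2 and 2 called with spike-in scaling. The glucose transporter Slc2a1 had means of 5393 in WT T24, 9912 in iEZR_CA T48 and 27500 in WT T48. Of 15 ATF4 stress genes 6 were higher and 5 lower, all by less than 2-fold, against 4 and 2 with spike-in scaling. Of 13 mitochondrially encoded mRNAs 6 were lower and none higher, with none called in either direction under spike-in scaling. Of 12 p53 targets 9 were lower and 1 higher, with 2 lower and none higher under spike-in scaling.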

How the data were processed

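RNA was sequenced in 18 samples. The submitters' processing notes name Trim Galore 0.6.5, GSNAP, HTSeq and DESeq2. The authors deposited 1 table of raw read counts per gene (GRCm38) with 92 rows of spike-in sequences, known here from their names in the table, and 5 classes of reads outside genes, which held 21.3 to 24.3% of all counted reads and stayed out of library sizes and tests. Whether strand was used in counting is not given in the sources used here, so overlapping and antisense genes are uncertain. From these counts, edgeR 4.0.16 (R 4.3.3) fitted all 18 libraries by group, after filterByExpr and TMM scaling, using its quasi-likelihood F test (robust); p-values were adjusted by Benjamini-Hochberg across 18469 genes, with a threshold of 0.05. A normalized count is a count divided by its library's median-of-ratios size factor from DESeq2, whereas the edgeR fit used TMM. Gene lists and members were chosen with earlier results of these data known. Other genes named are protein-coding, past the test, averaging at least 50 normalized counts with no overlap between the groups (12 each way for the main comparison, 6 each way for genes outside both WT stages and for the difference of changes, where no overlap in at least 1 of the line comparisons was asked, and 4 each way for ESCs). Replicates differed beyond sampling noise (chi-square per degree of freedom 1.57 to 3.42 over 18 pairs). The study describes the 3 libraries of a group as biological replicates. The edgeR code was tested on simulated data. Alternatives were RLE and spike-in scaling, DESeq2 1.42.0, other filters of low counts, a minimum fold of 1.5, only the groups compared, and each library left out.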

Additional observations from a re-analysis of the deposited data

Results flagged for a closer look

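The difference between the lines at T48 against T24 departed by more than 2-fold from that between the ESCs in 1853 genes by an interaction contrast in edgeR. The genes with the largest departures were noted because that test of the difference itself passed. Downward they were Nav3 (-6.52 on the log2 scale), Rapgef4 (-6.27), Cdh20 (-4.91), Pax8 (-4.85), Ly6c1 (-4.75) and Tbx15 (-4.04). Upward they were Ror1 (6.05), Gata2 (5.35), Lefty1 (4.94), Lmx1b (4.69), Zfp618 (4.61) and Cxcl12 (4.35). Where a group had at most 3 reads per library, the fitted size depends on the prior count and is no bound. This was so for Cxcl12 and Ror1 in iEZR_CA ESCs and for Gata2 in WT T24. Nav3 had at most 3 reads per library in WT ESCs and at most 1 in both WT T24 and iEZR_CA T48. Nav3 did not pass the test without WT T24 replicate 2 (-6.14).

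Outside the gene counts, the share of reads of low alignment quality reached 1.02% in an iEZR_CA library, above the highest WT value of 0.612%.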

How the results depend on the processing

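No paired analysis was possible because the labels give no replicate numbers. The replicate numbers used here only follow the order of the samples in the series. With at least 10 counts asked of every library, which leaves out genes that are off in any group, 863 genes differed by more than 2-fold (384 higher, 479 lower), 811 between the ESCs, and 788 departed from the ESC difference. That filter left 87 genes above and 112 below both WT stages, 189 rising genes higher and 32 lower, 27 falling genes higher and 237 lower, 2340, 1162 and 863 genes apart from WT ESC, WT T48 and WT T24, and medians of -1.01 for naive and -0.50 for core pluripotency. With spike-in scaling, 325 falling genes were lower and the medians were -0.94 for naive, -0.34 for core, -0.22 for formative, -0.52 for ERK and 0.67 for cholesterol genes. The core median was -0.51 with no filter and -0.51 with only the groups compared. Leaving out each library in turn gave medians of -0.52 to -0.51 for core, -0.72 to -0.60 for ERK (the latter without WT T24 replicate 2) and 0.46 to 0.49 for cholesterol genes, and 2286 to 2409 genes past 2-fold. Without the chromosome 14 stretch 1263 genes were higher and 951 lower. With 3 libraries a group, no exact test of a single gene can go below p = 0.1.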
